A study of Mus musculus with 10 samples.

Results

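The 10 genes described here belong to the integrated stress response: the kinase genes Eif2ak3 and Eif2ak4, the transcription factor genes Atf4 and Ddit3, and the downstream genes Ppp1r15a, Trib3, Chac1, Asns, Sesn2 and Ddit4. They were taken by symbol from a table of 54343 genes, and all 10 were found. Polyadenylated RNA was sequenced from 2 mouse tumour lines in culture, 5 libraries of MC38 and 5 of MC38.T4. MC38 is the parental line, of wild type genotype per the labels, which give its tissue as melanoma while the treatment text calls it a colon cancer line. MC38.T4 carries the labelled genotype of low mesothelin expression: MC38 cells were transfected with a plasmid for human mesothelin and cloned, and a tumour grown from that clone in C57/BL6 mice was removed after about 25 days. Its cells were passaged in culture for 10 generations, and 1 clone with low mesothelin became the line, so MC38.T4 stands for a single clone with a history in a host. Both lines were kept in RPMI1640 with 10% serum and 2 mM L-glutamine, and no stressor or drug is named for either. The labels name no separate cultures behind the libraries of a line, and p-values therefore measure the spread between these libraries, which may be technical.

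The integrated stress response slows protein synthesis when cells are short of amino acids, have misfolded protein in the endoplasmic reticulum, hold double-stranded RNA or lack haem. A family of kinases senses these states, and each phosphorylates the alpha subunit of the translation factor eIF2, so that most mRNAs are translated less while the mRNA of ATF4 is translated more. ATF4 with its partners then raises genes for amino acid supply, the transcription factor CHOP (Ddit3) and GADD34 (Ppp1r15a), a subunit that brings a phosphatase to eIF2alpha and closes the loop. ATF4 protein is set mainly at translation and these data hold mRNA only, so they measure neither phosphorylation nor ATF4 protein.

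ATF4 binds DNA as a dimer with C/EBP proteins at a composite element, and the promoters that carry its core letters are shown because the genes that hold them did not move alike. The core was searched as TGATGNAA, and the palindromic cyclic AMP response element, to which ATF and CREB family dimers bind, as TGACGTCA. Both strands were read in RefSeq windows of 300 bases, 250 before to 50 after each start (assembly GRCm38.p6, another build than that of the authors). All 10 genes had a window, and Eif2ak4 had a second. The core was found in 3 genes, Asns, Chac1 and Trib3, against 3.97% of the 32851 promoter windows of the table. The palindrome was found in 1, Ppp1r15a, against 1.79% of windows, and no match overlapped another. Bases outside the windows were not searched, so a gene without a match here may hold one farther from its start. Positions are counted from the start, negative before it, and the match begins at -23 in Asns, -193 in Chac1, -12 in Ppp1r15a and 15 in Trib3. Capitals mark the matches, which are descriptions of letters and not measured binding. The first 3 runs are the bases before the start, and the run of Trib3 is 30 bases around its match.
Asns, chr6:7693210-7693459, minus strand: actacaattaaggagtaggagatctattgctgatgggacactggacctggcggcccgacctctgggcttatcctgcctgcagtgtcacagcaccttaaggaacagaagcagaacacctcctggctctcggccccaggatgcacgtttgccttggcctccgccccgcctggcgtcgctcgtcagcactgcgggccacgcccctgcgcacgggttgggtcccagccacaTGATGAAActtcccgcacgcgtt
Chac1, chr2:119350992-119351241, plus strand: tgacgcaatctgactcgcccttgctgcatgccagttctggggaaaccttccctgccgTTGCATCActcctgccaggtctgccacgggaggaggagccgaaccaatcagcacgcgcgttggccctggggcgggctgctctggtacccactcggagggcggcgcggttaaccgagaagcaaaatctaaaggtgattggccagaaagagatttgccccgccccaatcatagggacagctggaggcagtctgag
Ppp1r15a, chr7:45526269-45526518, minus strand: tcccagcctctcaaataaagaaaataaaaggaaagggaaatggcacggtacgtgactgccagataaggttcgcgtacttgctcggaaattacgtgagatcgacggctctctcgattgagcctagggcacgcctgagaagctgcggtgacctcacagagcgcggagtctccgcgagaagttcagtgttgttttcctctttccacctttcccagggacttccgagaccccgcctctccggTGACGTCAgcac
Trib3, chr2:152344028-152344057, minus strand: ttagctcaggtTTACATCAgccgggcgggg

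Values are FPKM, fragments scaled by gene length and library size, which allows levels of different genes to be compared per length. FPKM summed to between 442183 and 484460 per library, the depths relative to MC38 replicate 1, read from single-read steps of low values, lay between 0.874 and 1.14, and the sources used here give no read totals. A pair of libraries stood apart: MC38 replicate 1 had the lowest sum, and MC38.T4 replicate 4 held 124.8 FPKM of the nuclear RNA Malat1 where the other 9 libraries held 53.1 to 75.9. Of 10 fibroblast and pericyte markers 5 were tested and all 5 rose in MC38.T4, where 43.1% of all tested genes rose. Pdgfrb (means 0.191 and 19.2 FPKM) and Acta2 (0.044 and 2.77 FPKM) reached the 1 FPKM needed for testing in MC38.T4 alone. Their direction was thus fixed by the filter. The summed level of the 10 markers was 33.9 to 36.8 FPKM in MC38 and 108.6 to 117.5 in MC38.T4. Thy1 was listed at 0 in all libraries and Fap had means of 0.030 and 0.0049 FPKM. Summed myeloid markers lay between 6.71 and 8.41 FPKM in MC38 and between 4.96 and 6.94 in MC38.T4, lymphocyte markers between 2.89 and 3.14 and between 2.57 and 3.44, and endothelial markers between 0.441 and 0.565 and between 0.920 and 1.18. Epithelial markers summed to 3.37 to 4.11 FPKM in MC38 and 1.119 to 1.43 in MC38.T4. Of 11, 1 was tested: Grhl2, a transcription factor of epithelia, fell from 3.59 to 0.045 FPKM, and the untested cadherin gene Cdh1 stood at 0.021 and 1.00 FPKM. Grhl2 reached 1 FPKM in MC38 alone, so the filter fixed the direction of its change. Melanocyte markers summed to 1.19 to 1.52 FPKM in MC38 and 1.85 to 2.07 in MC38.T4, and the 1 tested of 7, Mitf, rose from 0.781 to 1.74 FPKM. Mitf reached 1 FPKM in MC38.T4 alone, so its direction was fixed by the filter too. Among leukocyte genes Cd3e and Adgre1 were listed at 0 throughout, but others were not. Means in MC38 and MC38.T4 were 0.027 and 0.0023 FPKM for Ptprc, and 0.805 and 0.237 for Lyz2. Cd68 (3.10 and 2.21 FPKM) and Cd14 (3.44 and 3.19 FPKM) made up most of the myeloid sum. Lck (3.01 and 2.81 FPKM) made up most of the lymphocyte sum. Tyr, of the melanocytes, and Cdx2, of the intestinal epithelium, were listed at 0 in all libraries, while Epcam was at or near 0. The part of these markers in the results below was not tested.

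The kinase genes and Atf4 differed little between the lines, while Ddit3, Ppp1r15a, Trib3, Chac1 and Sesn2 were lower and Ddit4 was higher in MC38.T4. All 10 genes passed the filter, since each reached 1 FPKM in every library. Log2 fold changes of genes are limma differences of log2(FPKM + 1), while fold values are ratios of mean FPKM, so they differ at low levels. At an adjusted p under 0.05 from limma, 4 rose and 5 fell in MC38.T4, where 43.1% of the 11110 tested genes rose and 42.9% fell. The 9 genes called of 10 are thus close to the 86.0% of all tested genes that were called, and the count itself says little of these genes. The same shares of all tested genes are the background for the counts of every list below. Beyond 2-fold, 1 of the 10 rose and 3 fell, against 10.0% and 7.14% of tested genes, and the 4 together compare with 17.2%. The groups of 5 libraries did not overlap for 7 of the 10, against 77.4% of tested genes. The median log2 fold change was 0.12 over both kinases and -0.76 over the 8 downstream genes, which ranged from -3.33 to 2.49, and the median of all tested genes was 0.00077.

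**Figure D1:**
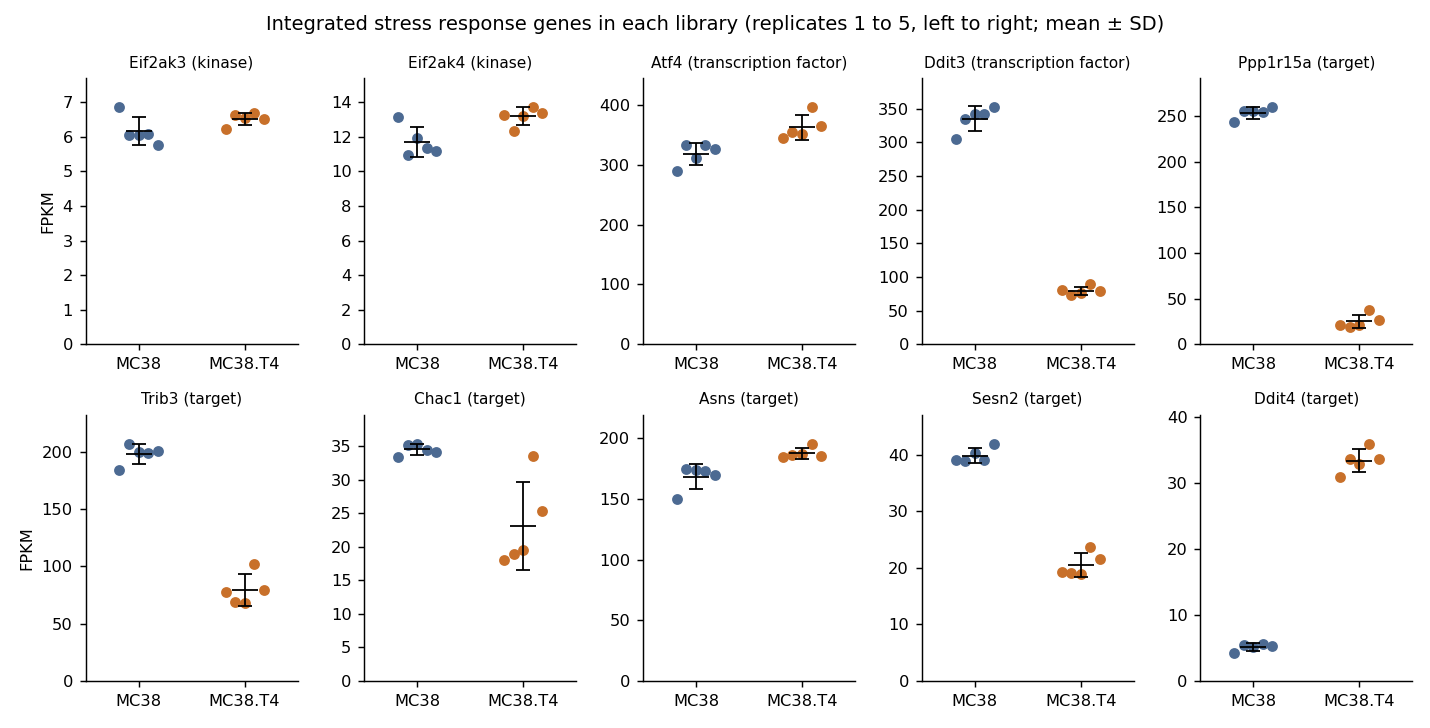
FPKM (vertical axes, from 0) of the 10 genes in the 5 MC38 and 5 MC38.T4 libraries, 1 point per library with the mean and SD in black. Ddit3, Ppp1r15a, Trib3 and Sesn2 lie lower and Ddit4 lies higher in every MC38.T4 library, while Eif2ak3, Eif2ak4 and Chac1 overlap between the lines.

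Among the kinases, PERK, encoded by Eif2ak3, spans the membrane of the endoplasmic reticulum and responds to misfolded protein there. Its gene stood at 6.87, 6.06, 6.04, 6.08 and 5.78 FPKM in MC38 replicates 1 to 5 and at 6.23, 6.63, 6.56, 6.69 and 6.51 FPKM in MC38.T4. These ranges overlap through MC38 replicate 1, the highest of all. The log2 fold change was 0.07 (95% interval -0.02 to 0.17, limma adjusted p = 0.141), and without MC38 replicate 1 it was 0.11 with an adjusted p of 0.0151. GCN2, encoded by Eif2ak4, senses uncharged tRNA. Eif2ak4 had 13.1, 10.9, 11.9, 11.4 and 11.2 FPKM in MC38 and 13.3, 12.4, 13.2, 13.7 and 13.4 FPKM in MC38.T4, again with MC38 replicate 1 inside the range of the other line. It rose by 0.16 on the log2 scale (SE 0.05, limma adjusted p = 0.00533), but on the TPM scale it did not pass (0.12, adjusted p = 0.0751).

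The kinases outside the set of 10 moved further. The gene of the haem-regulated kinase, Eif2ak1, fell from 23.2 ± 0.61 to 13.7 ± 0.33 FPKM (SD, 5 libraries each, log2 fold change -0.72, limma adjusted p = 1.53e-11). Eif2ak2, the double-stranded RNA sensor PKR and an interferon-induced gene, rose from 16.5 ± 1.5 to 21.1 ± 0.83 FPKM (0.34, limma adjusted p = 2.09e-05). Neither gene overlapped between the lines. Of 8 regulators of the kinases 4 rose and 2 fell. Hspa5, the chaperone BiP that holds PERK inactive, fell from 1586 ± 33 to 545 ± 23 FPKM, the largest change of this list (log2 -1.54). Impact, an inhibitor of GCN2, fell from 22.6 to 18.2 FPKM. The largest rises of this list among genes with a mean of at least 5 FPKM were Dele1, which relays mitochondrial stress to the haem-regulated kinase (14.03 to 21.5 FPKM), Prkra, an activator of PKR (12.5 to 18.8 FPKM), and Abcf1 (46.9 to 66.9 FPKM). The GCN2 partner Gcn1 (23.4 and 22.3 FPKM) and the PERK inhibitor Dnajc3 (23.0 and 24.2 FPKM) were not called.

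The substrate and its exchange factor did not move as a block. Of 8 genes for eIF2 and eIF2B subunits 2 rose and 5 fell, with a median log2 change of -0.25. Eif2s1, which encodes eIF2alpha itself, fell from 178 to 74.2 FPKM (log2 -1.25, limma adjusted p = 2.68e-14), with all MC38.T4 libraries between 71.5 and 75.97 FPKM. Eif2s2 fell from 326 to 216 FPKM and Eif2b1 from 48.4 to 29.7 FPKM. Eif2s3x rose from 136 to 176 FPKM, and Eif2b5, the catalytic subunit of eIF2B, rose from 16.0 to 49.4 FPKM (log2 1.58).

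The transcription factor genes Atf4 and Ddit3 went opposite ways. Atf4 was among the more abundant of these mRNAs, at 291, 334, 311, 333 and 326 FPKM in MC38 and 345, 356, 352, 397 and 365 FPKM in MC38.T4. Every MC38.T4 library lay above every MC38 library, by a small margin. The mean rose from 319 ± 18 to 363 ± 21 FPKM (SD, n = 5 each), which is 0.19 on the log2 scale (SE 0.05, adjusted p = 0.00214 from limma). The size of this change is below that of 78.4% of tested genes, and without both libraries that stand apart it was 0.12. An exact permutation test gave p = 0.00794, two-sided, the smallest it can give with 5 libraries against 5. Ddit3, which encodes CHOP, a C/EBP family member known for its part in death under lasting stress, stood at 305, 335, 341, 342 and 352 FPKM in MC38. In MC38.T4 it stood at 80.4, 72.8, 75.7, 88.8 and 79.6 FPKM, without overlap. The mean was 4.22-fold lower in MC38.T4 (log2 fold change -2.06, SE 0.05, limma adjusted p = 2.01e-14, exact permutation p = 0.00794), a size passed by 2.16% of tested genes. In RefSeq the body of Ddit3 overlaps those of Mars1 and Mbd6, and the sources used here do not say if the counting used strand. Mars1 was not called (46.4 and 43.8 FPKM) and Mbd6 fell from 11.2 to 8.99 FPKM.

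Of 9 tested transcription factors of the response, Atf4 and Ddit3 included, 2 rose, 6 fell and 1 was not called, with a median log2 change of -0.48. Atf3, a repressor induced downstream of ATF4, fell furthest. Its 5 MC38 libraries lay between 38.04 and 42.3 FPKM and its 5 MC38.T4 libraries between 0.0119 and 0.0615 FPKM. Atf3, counted among the 6 falls, reached 1 FPKM in MC38 alone, so the filter fixed the direction of its change. Nupr1, a stress-induced cofactor, fell from 82.7 ± 4.9 to 37.8 ± 3.5 FPKM. The C/EBP partners Cebpg and Cebpb fell from 41.4 to 29.1 and from 17.3 to 12.1 FPKM, and Nfe2l2, the antioxidant regulator NRF2, from 82.8 to 67.6 FPKM. Atf5, a relative of ATF4 that is also controlled at translation, rose from 49.5 ± 2.8 to 79.6 ± 5.8 FPKM (log2 0.67, limma adjusted p = 8.22e-09). Jdp2 was not called (33.7 and 34.7 FPKM), and Batf2 lay below the filter.

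Ppp1r15a, the gene of the feedback subunit GADD34, was the most changed of the 10. Its values were 243, 255, 255, 254 and 260.1 FPKM in MC38 and 21.2, 19.1, 20.9, 37.0 and 26.6 FPKM in MC38.T4. The MC38 libraries were tightly grouped (coefficient of variation 2.47%) and the MC38.T4 libraries were spread (29.3%), with replicate 4 the highest. The mean was 10.2-fold lower in MC38.T4 (log2 fold change -3.33, SE 0.16, limma adjusted p = 2.56e-08), and 0.288% of tested genes changed by a larger size. Ppp1r15b, the constitutive counterpart of GADD34, fell less, from 61.1 ± 4.4 to 27.1 ± 1.3 FPKM (log2 -1.14, limma adjusted p = 6.14e-12). The ratio of Ppp1r15a to Ppp1r15b within a library was 3.53 to 4.41 in MC38 and 0.673 to 1.43 in MC38.T4. Of the genes for the catalytic subunit of the phosphatase, Ppp1ca rose from 268 to 344 FPKM, Ppp1cb fell from 48.0 to 30.5 FPKM and Ppp1cc was not called (118 and 114 FPKM).

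**Figure D2:**
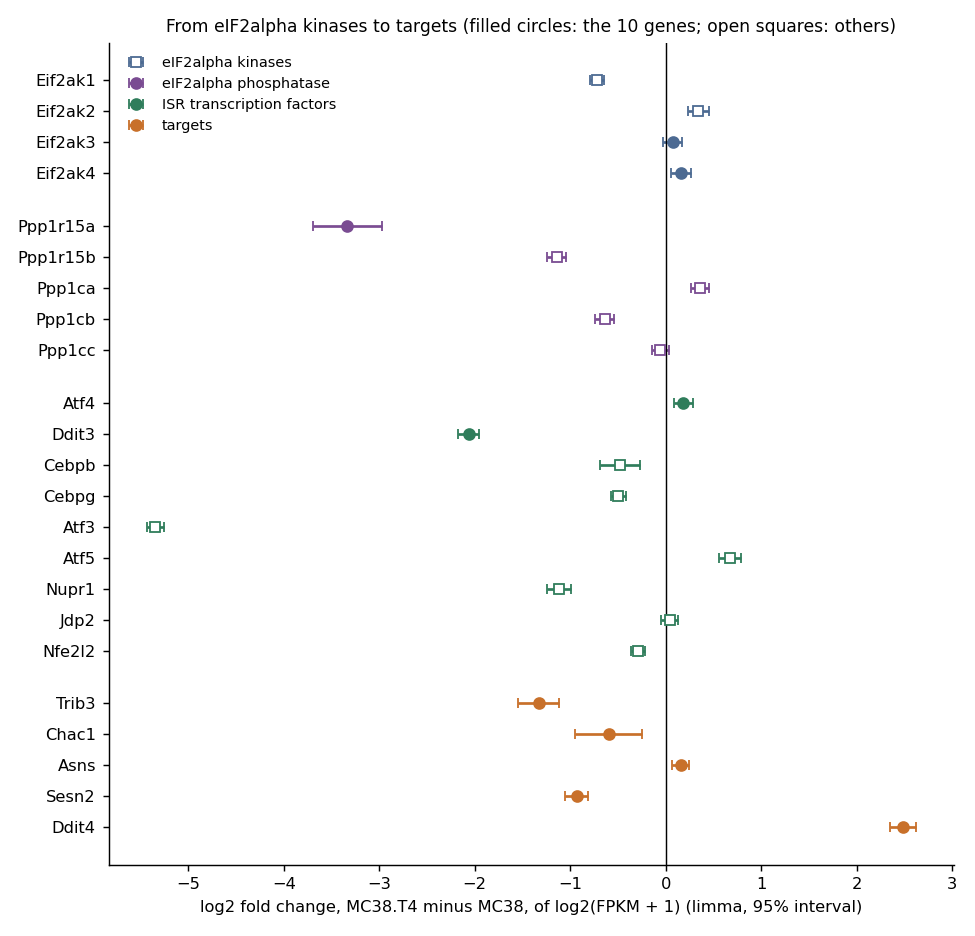
Log2 fold change, MC38.T4 minus MC38 on the log2(FPKM + 1) scale (horizontal axis), with 95% intervals from limma, for kinases, phosphatase subunits, transcription factors and targets. Filled circles are the 10 genes and open squares the other tested genes of those lists. The intervals of Eif2ak3, Ppp1cc and Jdp2 cross 0, while Atf3 and Ppp1r15a lie farthest to the left and Ddit4 farthest to the right. Atf3 reached 1 FPKM in MC38 alone, so the filter fixed its direction.

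Trib3, Chac1 and Sesn2, all induced by the response, fell together in MC38.T4. Trib3 encodes a pseudokinase that binds AKT and restrains ATF4 and CHOP. It stood at 184, 207, 199.8, 199 and 201 FPKM in MC38 and at 77.6, 68.6, 67.7, 102.5 and 79.0 FPKM in MC38.T4, with no overlap. The log2 fold change was -1.33 (SE 0.10, limma adjusted p = 9.44e-08). Sesn2, sestrin 2, senses leucine and restrains the growth kinase complex mTORC1. Its values of 39.2, 38.9, 40.2, 39.0 and 41.97 FPKM in MC38 compare with 19.2, 19.1, 18.9, 23.7 and 21.5 FPKM in MC38.T4. The mean was 1.94-fold lower (log2 fold change -0.93, SE 0.06, limma adjusted p = 4.17e-10).

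Chac1, an enzyme that degrades glutathione, had the smallest change of the falling genes, with MC38.T4 libraries spread nearly as widely as for Ppp1r15a (coefficients of variation 28.2% and 29.3%). MC38 libraries held 33.4, 35.3, 35.4, 34.5 and 34.1 FPKM and MC38.T4 libraries 18.1, 18.98, 19.6, 33.5 and 25.4 FPKM. MC38.T4 replicate 4 reached the MC38 range, so the lines overlap through that library. The log2 fold change was -0.60 (SE 0.15, limma adjusted p = 0.00492), and the two-sided exact permutation test gave p = 0.0159. Without MC38.T4 replicate 4 it was -0.74 (limma adjusted p = 1.61e-06).

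Asns and Ddit4 rose, the first slightly and the second strongly. Asns, asparagine synthetase, is a classical amino acid response gene, and its values were 150.3, 175, 174, 173 and 169.8 FPKM in MC38 and 185, 187, 187, 196 and 185 FPKM in MC38.T4. The ranges do not overlap, and the log2 fold change was 0.16 (SE 0.04, limma adjusted p = 0.00273). MC38 replicate 1 was the lowest of its line, and without it the change was 0.12, or 0.10 when MC38.T4 replicate 4 was left out as well. Ddit4, which encodes REDD1, an inhibitor of mTORC1 that also responds to hypoxia and glucocorticoids, stood at 4.17, 5.49, 5.15, 5.66 and 5.30 FPKM in MC38. It reached 30.9, 33.5, 32.8, 35.9 and 33.6 FPKM in MC38.T4, a 6.48-fold rise of the mean FPKM. On the log2(FPKM + 1) scale the change of Ddit4 was 2.49 (SE 0.06, limma adjusted p = 2.77e-14). Sesn2 and Ddit4, which both restrain mTORC1, thus moved in opposite directions.

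Ratios between genes of the same library do not depend on a single scaling factor for that library, and 9 pairs were compared by an exact permutation test with adjustment over the 9. Relative to Atf4, Ddit3 fell from a ratio of 1.05 in MC38 (range 1.00 to 1.10) to 0.219 in MC38.T4 (0.205 to 0.233), a difference of -2.26 on the log2 scale (SE 0.04, exact p = 0.00794, adjusted p = 0.0143). Ddit3 fell and Atf4 rose without overlap, so this p-value had to be the smallest possible. It adds nothing to the tests of the single genes. Asns kept close to Atf4, at 0.528 and 0.518 (log2 difference -0.03, SE 0.03, exact adjusted p = 0.491). Atf4 relative to Eif2ak3 and to Eif2ak4 differed by 0.10 (SE 0.08) and 0.01 (SE 0.09), with exact adjusted p-values of 0.327 and 0.921. Trib3 and Chac1 fell less than Ddit3. The ratio of Trib3 to Ddit3 went from 0.591 to 0.986 and that of Chac1 to Ddit3 from 0.103 to 0.283, each without overlap between the lines (exact adjusted p = 0.0143). The widest shift was that of Ddit4 to Sesn2, from 0.129 to 1.63, also at an exact adjusted p of 0.0143. Since Ddit4 rose and Sesn2 fell without overlap, that p-value was fixed in the same way. The ratio of Eif2ak4 to Eif2ak3 was 1.90 and 2.02 (exact adjusted p = 0.0952), and without MC38.T4 replicate 2 its log2 difference of 0.12 passed (exact adjusted p = 0.0238).

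**Figure D3:**
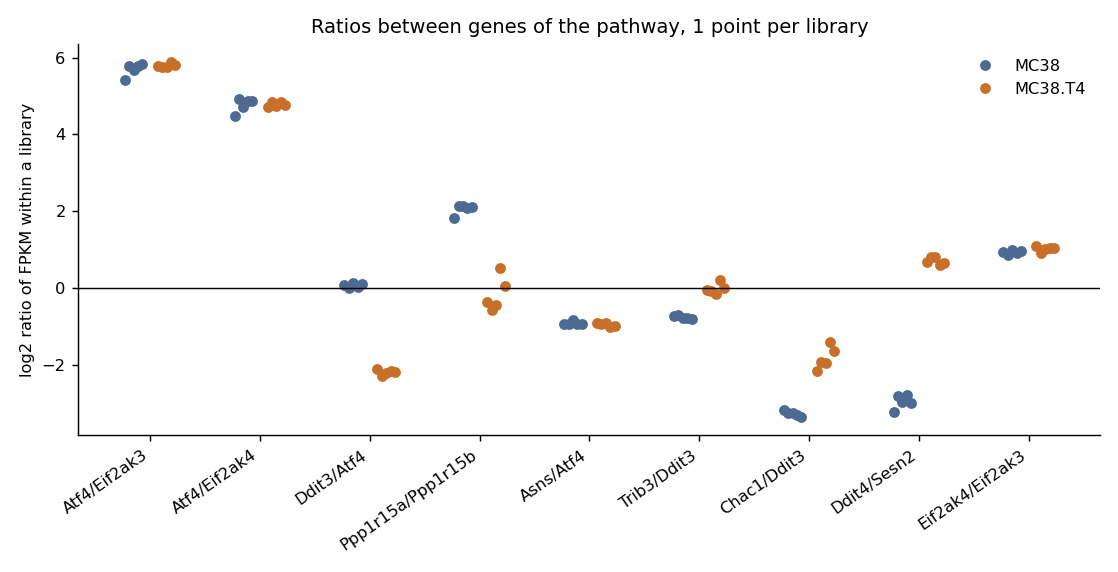
Log2 ratio of FPKM between 2 genes of the same library (vertical axis) for 9 pairs, 1 point per library, MC38 in blue and MC38.T4 in orange. The lines separate for Ddit3/Atf4, Ppp1r15a/Ppp1r15b, Trib3/Ddit3, Chac1/Ddit3 and Ddit4/Sesn2, and they overlap for the other 4 pairs.

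Within MC38.T4 1 library was high for every one of the 10 genes. Replicate 4 was the highest of the 5 MC38.T4 libraries for all 10, where it was the highest for 22.3% of tested genes. Replicate 5 came next for 7 of the 10, an order seen in 7.11% of tested genes. Relative to the mean of the other 4 MC38.T4 libraries, replicate 4 held 1.69 times as much Ppp1r15a, 1.64 times as much Chac1, 1.40 times as much Trib3 and 1.21 times as much Sesn2. The excess was smaller for Ddit3 (1.15 times), Atf4 (1.121 times), Ddit4 (1.10 times), Asns and Eif2ak4 (1.05 times each) and Eif2ak3 (1.03 times). The same library was highest for 13 of 14 immediate-early genes, 7 of 8 amino acid transport genes and 9 of 13 tRNA charging genes, but for 1 of 9 heat shock genes and 1 of 10 mTORC1 genes. Gadd45a, a stress gene outside the set, had 60.3 FPKM in replicate 4 and 29.7 to 40.1 FPKM in the other MC38.T4 libraries. That library also held the most Malat1, the highest share of mitochondrial transcripts (6.85%, against 3.76% to 6.05% in the other 9 libraries) and the lowest relative depth (0.874, followed by replicate 5 at 0.886). The part of these in the pattern was not tested. In MC38 the coefficients of variation of the 10 genes lay between 2.43% and 11.3%, and replicate 1 was the lowest library for 7 of the 10 (29.8% of tested genes).

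**Figure D4:**
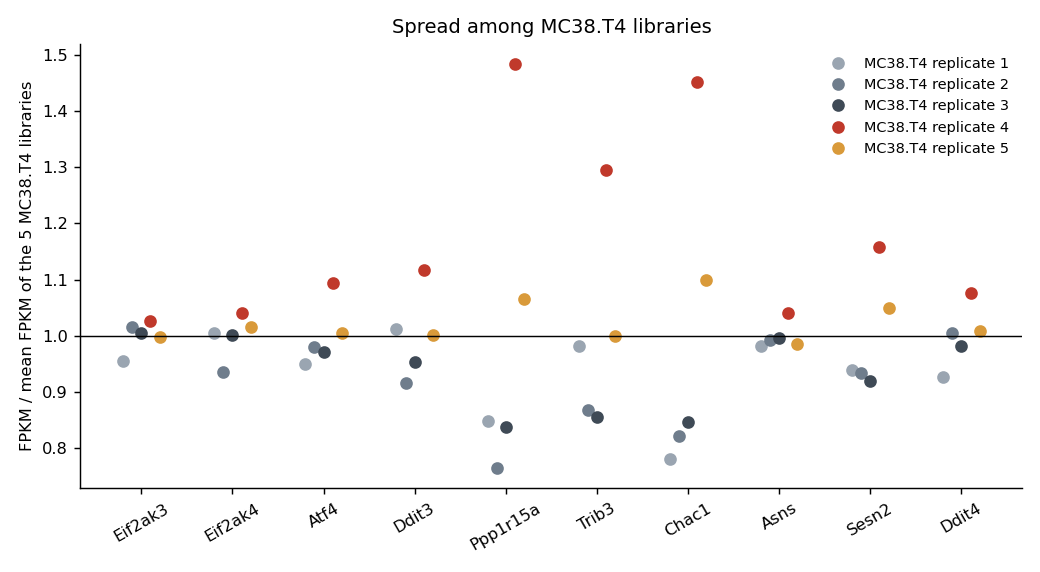
FPKM of each MC38.T4 library divided by the mean of the 5 MC38.T4 libraries (vertical axis) for the 10 genes, with replicates in separate colours. Replicate 4 is the highest point for every gene, most clearly for Ppp1r15a, Chac1 and Trib3.

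Amino acid genes, the best known output of ATF4, went both ways. Of 12 tested genes for amino acid synthesis, Asns included, 6 rose and 4 fell, with a median log2 change of 0.10. Pycr1, the last enzyme of proline synthesis, rose from 3.41 ± 0.38 to 18.8 ± 0.71 FPKM (log2 2.17), the mitochondrial folate enzyme gene Mthfd2 from 66.7 to 109.7 FPKM, and the alanine aminotransferase gene Gpt2 from 25.8 to 41.7 FPKM. The serine synthesis genes split: Phgdh, the entry enzyme, fell from 532 ± 33 to 278 ± 8.2 FPKM and Psph from 82.5 to 45.6 FPKM, while Psat1 between them was not called (348 and 358 FPKM). Aldh1l2 fell from 107.8 to 68.8 FPKM. Of 8 tested amino acid transporter genes 1 rose and 5 fell, with a median of -0.51. Slc3a2, the heavy chain shared by several exchangers, fell from 415 ± 15 to 173 ± 16 FPKM (log2 -1.26), the cystine transporter gene Slc7a11 from 9.49 to 5.595 FPKM and the glutamine transporter gene Slc38a2 from 108 to 71.0 FPKM. The glycine transporter gene Slc6a9 was the single rise, from 16.9 to 19.1 FPKM. Of 13 genes for tRNA charging and export 4 rose and 7 fell (median -0.12). Wars fell from 111 to 33.4 FPKM, Tars from 134 to 57.1 and the tRNA exporter gene Xpot from 89.5 to 49.3, while Cars rose from 46.1 to 61.6, Sars from 175 to 224 and Lars from 74.1 to 85.0.

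Outputs further down and the other arms of the unfolded protein response also split. Of 5 tested genes listed as secreted outputs 3 rose and 2 fell (median 0.29), though Vldlr among them encodes a membrane receptor. Vegfa rose from 31.5 to 42.1 FPKM and Vldlr from 21.2 to 26.2, and Stc2 fell from 17.0 to 6.54 and Nucb2 from 12.6 to 9.44. Gdf15 and Fgf21, hormones often used as readouts of the response, lay below the filter in both lines, at 0.401 and 0.192 FPKM and at 0.306 and 0.520 FPKM. Of 7 genes for apoptosis and oxidation linked to CHOP 3 rose and 4 fell (median -0.23). Bbc3, encoding the death protein PUMA, fell from 16.6 ± 0.58 to 5.76 ± 0.34 FPKM, the death receptor gene Tnfrsf10b from 17.7 ± 0.39 to 6.17 ± 0.37 FPKM and Bid from 37.7 to 24.1 FPKM, while the oxidase gene Ero1a rose from 97.6 to 120.3 FPKM. All 18 genes of the other arms were called, 10 up and 8 down (median 0.15), where 86.0% of all tested genes were called. Beside Hspa5, Dnajb9 fell from 16.4 to 5.13 FPKM and Sel1l from 44.8 to 17.5, while Atf6b rose from 4.09 to 21.7, the chaperone gene Calr from 130.2 to 419 and Pdia4 from 54.6 to 113. Atf6, the paralog of Atf6b, fell from 47.1 to 20.2 FPKM, Ern1 from 24.2 to 18.3 and Xbp1 from 36.5 to 31.7.

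Several inputs can set the same targets, and their gene lists are given for that reason. Over all tested genes 43.1% rose and 42.9% fell. Of 11 tested genes of the p53 list, Trp53 itself included, 2 rose and 8 fell (median -0.33). The target gene Cdkn1a was not called (13.6 and 13.2 FPKM). Gadd45a fell from 356 ± 13 to 38.1 ± 13 FPKM, Plk2 from 235 to 90.2 and Trp53, encoding p53, from 106 to 42.4, and Sesn1, a paralog of Sesn2, rose from 4.53 to 7.83 FPKM. Of 9 tested genes of the hypoxia list 8 rose and 1 fell (median 0.75). Among the 8, Ankrd37 (means 0.230 and 7.66 FPKM) reached 1 FPKM in MC38.T4 alone, so the filter fixed its direction. The rises include Hif1a, which encodes a hypoxia regulator (28.3 to 40.7 FPKM). Bnip3 rose from 23.1 to 87.4 FPKM, Pdk1 from 6.24 to 23.7 and Slc2a1 from 13.6 to 46.9, and Ndrg1 fell from 94.9 to 43.4. Of 7 tested genes of the glucocorticoid list, the receptor gene Nr3c1 included, 3 rose and 4 fell (median -0.31). The rises were Fkbp5 (16.2 to 37.99 FPKM), Nr3c1 (19.2 to 32.2) and Sgk1 (89.2 to 97.8). Among the falls were Tsc22d3 (20.8 to 12.6 FPKM), Per1 (9.58 to 5.63) and Klf9 (15.3 to 11.8). Of 14 tested immediate-early genes 1 rose and 12 fell (median -0.81), led by Myc (302 to 57.7 FPKM), Klf6 (146 to 28.3) and Ier5 (36.7 to 10.2). Whether any of these inputs took part in the changes of the 10 genes was not tested.

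Machinery for mRNA decay and growth control was mixed. Several mRNAs of the response are known substrates of nonsense-mediated decay, and of 12 genes for its factors 4 rose and 8 fell (median -0.17). Upf3a rose from 8.69 to 18.1 FPKM, Smg5 from 39.5 to 61.3 and Upf3b from 8.64 to 13.3, while Smg8 fell from 28.4 to 15.7, Upf2 from 23.5 to 13.7 and Casc3 from 35.5 to 23.5. Of 10 genes of mTORC1 and its nearest partners 4 rose and 4 fell (median 0.05). Mlst8 rose from 3.46 to 7.09 FPKM and the S6 kinase gene Rps6kb1 from 14.6 to 20.1. Eif4ebp1, a translation repressor that ATF4 induces, fell from 158 to 97.0 FPKM, and Rheb, the activator of mTORC1, from 74.1 to 46.6 FPKM. Of 8 genes that restrain the response or mTORC1, of which 5 belong to the 10 genes, 2 rose and 6 fell. Of 9 tested heat shock genes 6 rose and 2 fell (median 0.23). Hspd1 rose from 436 to 846 FPKM and Hsf1 from 24.4 to 47.5, and Hsph1 fell from 188 to 105 FPKM.

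**Figure D5:**
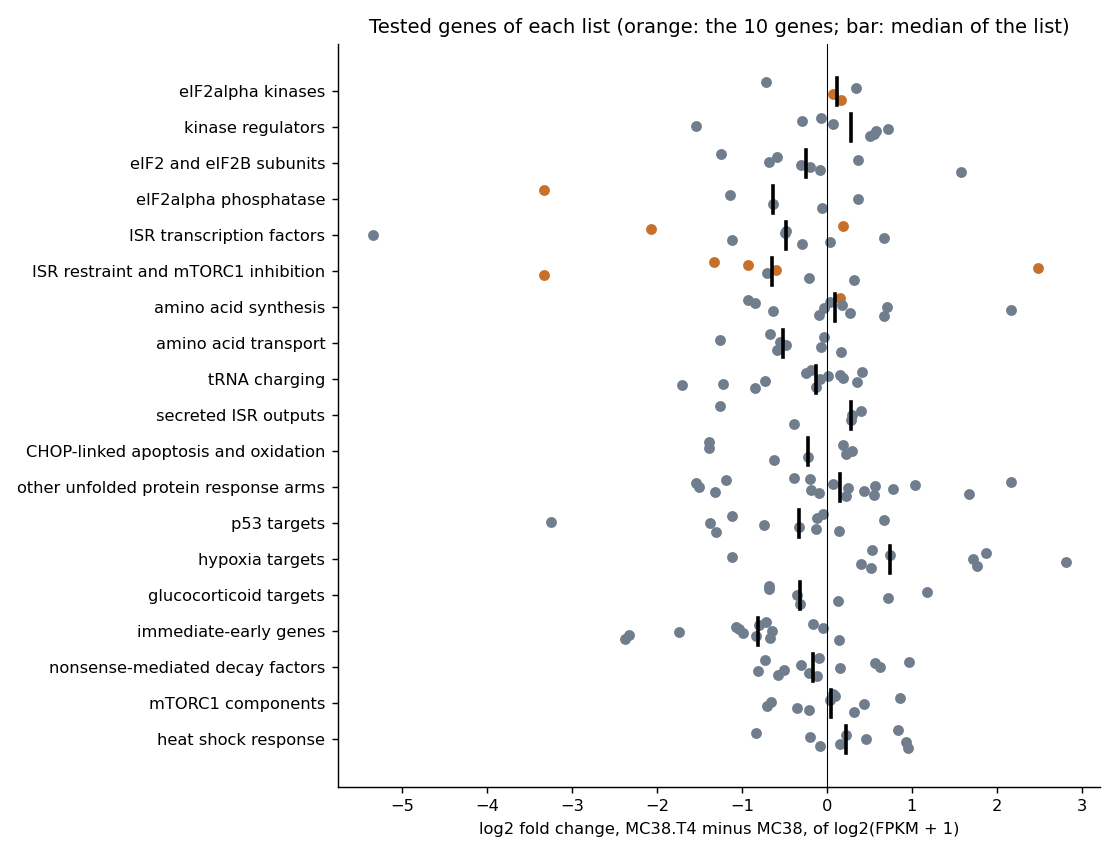
Log2 fold change, MC38.T4 minus MC38 on the log2(FPKM + 1) scale (horizontal axis), of every tested gene of the 19 pathway lists (rows), with the 10 genes in orange, other genes in grey and a bar at the median of each list. Medians run from -0.81 for immediate-early genes to 0.75 for hypoxia targets, and single genes within most lists lie on both sides of 0.

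Genes outside these lists with the most similar profiles were sought for Atf4, Ddit3 and Ppp1r15a, by the distance between log2(FPKM + 1) profiles over the 10 libraries, each centred on its own mean. The nearest to Atf4 were Zcrb1 (distance 0.116), Ndufaf7 (0.123) and Stx5a (0.135). To Ddit3 they were Areg, the EGF receptor ligand amphiregulin (0.237), Tex264, a receptor for autophagy of the endoplasmic reticulum (0.265), and the snoRNA host gene Snhg17 (0.266). To Ppp1r15a they were Prr32 (0.548), Mamdc2 (0.724) and Slc5a4a (0.763). Their MC38.T4 means were 1.07, 0.609 and 0.914 FPKM, where the log2(FPKM + 1) scale understates changes. In mean FPKM they were 17.1-, 22.4- and 20.9-fold lower in MC38.T4, against 10.2-fold for Ppp1r15a. Mamdc2 reached 1 FPKM in MC38 alone, so the filter fixed its direction. Areg, at a mean of 0.954 FPKM in MC38.T4, was 7.31-fold lower, against 4.22-fold for Ddit3. With 2 lines such a distance mostly reflects the size of the difference between them.

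Chromosomal neighbours of the strongly changed genes moved both ways. Of the 10 tested genes nearest to Ddit4 by order in RefSeq, 5 on each side, 3 rose and 6 fell (median log2 change -0.52). Around Ddit3 6 rose and 3 fell (0.16), around Ppp1r15a 5 rose and 3 fell (0.19), and around Trib3 2 rose and 6 fell (-0.12). These counts compare with the 43.1% and 42.9% of all tested genes that rose and fell.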

How the data were processed

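Polyadenylated RNA from 10 cultured samples was made into strand-specific libraries, per the labels' protocols. The authors deposited 1 table of FPKM keyed by gene symbol. GRCm39 and DESeq2 appear in the submitters' processing notes, without version or role. The sources used here name no aligner, counter, annotation or filter. FPKM keeps no read counts, so no counting interval is given, and a few abundant genes can lower all others.

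The 11110 genes that reached 1 FPKM in 5 or more libraries were tested on log2(FPKM + 1), a scale that understates changes of low genes, with limma 3.58.1 in R 4.3.3 (trend and robust moderation, a line term only, two-sided, Benjamini-Hochberg over all tested genes, threshold 0.05). Single genes and 9 ratios had an exact permutation test over libraries. On simulated data for the 11110 genes, 200 were set to change. Of those set to change by 0.25 (log2) 72% were recovered, and of those set to change by 1, 99%. Unchanged genes made up 6.56% of the simulated calls. In the real data 86.0% of tested genes were called, so these rates do not carry over to them directly. Other steps ran in Python 3.11.15 (SciPy 1.17.1, NumPy 2.4.6, pandas 2.3.3, matplotlib 3.10.9).

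The 10 genes and the 25 lists (242 symbols, all found) were chosen with earlier results of these data known. Named genes are the 10, all tested kinases, phosphatase subunits and transcription factors, and of each other list up to 3 rises and 3 falls of largest size with a mean FPKM of at least 5. Where a list had no call, its gene of highest mean was taken, and for Atf4, Ddit3 and Ppp1r15a the 3 nearest profiles. Genes named beside these rules (Gcn1, Dnajc3, Psat1, Mars1, Mbd6, Gdf15, Fgf21, Batf2, Atf6, Ern1, Xbp1, Cdkn1a, Hif1a, Ankrd37, Malat1 and single cell type markers) were chosen after their values were seen. The alternatives changed the pseudocount (to 0.1), the filter (none, or 5 FPKM), the scaling (TPM, quantiles, equal medians), the moderation (plain eBayes), the weights per library or the block (replicate number), or left libraries out.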

Additional observations from a re-analysis of the deposited data

Results flagged for a closer look

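In 14 of 226 groups of 5 libraries, for 113 named genes, 1 library lay beyond the 95% limit of Dixon's test (0.71), and chance sets apart about 5% of groups. Among all tested genes the share was 6.65% in MC38 and 5.81% in MC38.T4. Of the 10 genes, Asns was set apart in MC38 replicate 1 (150.3 FPKM, others 169.8 to 174.9) and in MC38.T4 replicate 4 (195.7 FPKM, others 184.7 to 187.3), and Eif2ak3 in MC38 replicate 1 (6.87 FPKM, others 5.78 to 6.08). MC38 replicate 1 was also high for Ppp1r15b (68.8 FPKM, others 57.9 to 60.4), Sel1l (50.1 FPKM, others 43.2 to 43.9) and Slc7a11 (11.3 FPKM, others 8.91 to 9.17).

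MC38.T4 replicate 4 was high for Slc3a2 (201.1 FPKM, others 161.4 to 171.6), Vldlr (30.4 FPKM, others 24.0 to 25.9) and Zcrb1 (98.3 FPKM, others 89.3 to 91.2). It was low for Hspd1 (755.1 FPKM, others 860.2 to 878.5), Eif4ebp2 (25.9 FPKM, others 28.98 to 30.2) and Upf3a (14.1 FPKM, others 18.2 to 19.7). Ero1a was low in MC38.T4 replicate 1 (99.6 FPKM, others 122.6 to 129.5) and Tex264 in MC38.T4 replicate 3 (35.7 FPKM, others 38.5 to 39.1).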

How the results depend on the processing

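Of the 10 genes, 8 kept their direction and their side of the threshold in all 20 alternatives, with log2 fold changes between -3.50 and -3.25 for Ppp1r15a, -2.14 and -2.03 for Ddit3, -1.45 and -1.28 for Trib3, -0.996 and -0.903 for Sesn2, -0.748 and -0.522 for Chac1, and 2.40 and 2.68 for Ddit4. The small rises moved by over 1.5 times: Atf4 ranged from 0.108 (quantile normalization, limma adjusted p = 0.0474) to 0.204 and Asns from 0.103 (without both libraries that stand apart) to 0.186. Eif2ak4 was not called after rescaling to TPM (0.12, adjusted p = 0.0751 from limma). Eif2ak3 was called with array weights (0.096, limma adjusted p = 0.0232) and without both libraries that stand apart (0.098, limma adjusted p = 0.0301), ranged from 0.052 to 0.106 with 1 library left out, and was -0.012 with quantile normalization. The cause was not tested. The replicate number as a block called 9534 genes where 9555 were called without it, and it changed no call of the 10 genes. The labels name no batch, and whether same-numbered libraries share more than a number was not tested. The correlations of their deviations were 0.135, 0.142, -0.128, -0.129 and 0.014, and 2 of 5 MC38 libraries correlated best with their own number.

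For the ratios the block allows too few assignments to pass. Ddit3/Atf4 (-2.26), Ppp1r15a/Ppp1r15b (-2.22), Trib3/Ddit3 (0.737), Chac1/Ddit3 (1.46) and Ddit4/Sesn2 (3.67) kept their values there, each with an exact adjusted p of 0.0938. Without both libraries that stand apart these 5 were -2.27, -2.45, 0.688, 1.38 and 3.62, each with an exact adjusted p of 0.0514 in a smaller design, while Atf4/Eif2ak4 was -0.081. Quantile normalization gave 0.158 for Eif2ak4/Eif2ak3, now past the threshold, -0.036 for Atf4/Eif2ak4 and 0.079 for Asns/Atf4. With 1 library left out Atf4/Eif2ak4 ranged from -0.063 to 0.052 and Eif2ak4/Eif2ak3 from 0.072 to 0.120, the last without MC38.T4 replicate 2 and past the threshold (exact adjusted p = 0.0238). Jdp2, not called, was -0.0065 after rescaling to TPM. The median log2 change of epithelial and of melanocyte markers, which rests on 1 tested gene each, turned to 0.0028 and -0.0048 with no filter, where more genes entered. No count of called genes in a pathway list moved by over 1.5 times in any alternative, and 29 counts of marker lists did, which hold few tested genes. FPKM without read totals limits what can be said of genes near the filter.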
